A study of Pogonatum aloides with 7 samples.

Results

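The evenly expressed core of the transcriptome was examined in the moss Pogonatum aloides, over 5 stages of capsule development and the young gametophyte. In mosses the leafy green plant is the haploid gametophyte, and the diploid sporophyte stays attached to it, is fed by it and forms its spores in a capsule. All plants are labelled wild type. Stages 1, 2 and 3 are labelled small capsules, stage 4 middle capsules and stage 5 big capsules, the gametophytes are labelled seedlings, and each of these 6 groups had 1 library. With 1 library per group no difference between groups could be tested, and every value below describes these libraries. The labels do not say how many plants or capsules each library came from.

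The members were selected on their measured RPKM, reads scaled to the length of a unigene and to the total of its library. Unigenes are sequences put together from the RNA reads themselves, with no genome as a guide. Of 74566 unigenes, 18218 had a value in all 6 libraries, and 1240 of these had a highest value of at most 2 times the lowest. Among these 1240, 8 rose at every step from stage 1 to stage 5 and were left out. The 300 with the highest mean RPKM of the remaining 1232 are described here and called members. Because all 6 values chose the members, their evenness is a description and not a finding, and no test was made on it.

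Transcripts with a steady level across organs often belong to processes that every living cell runs, such as protein synthesis, protein turnover, energy metabolism and the cytoskeleton. Such transcripts serve as internal references when the level of another gene is measured by quantitative PCR. RPKM is a relative measure, so an even RPKM is an even share of the library's reads and says nothing of the number of transcripts per cell. The identifiers carry no gene names and 0 of them could be paired with a gene, so which processes the members serve was not determined, and members are described by level, profile, length and cluster.

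An even level was uncommon, and it was least common among weakly expressed unigenes. The rule without the limit on level was met by 6.76% of the 18218 unigenes listed in all 6 libraries. It was met by 20 of 1515 unigenes (1.32%) with a mean under 1 RPKM, by 176 of 2017 (8.73%) between 10 and 20 RPKM and by 128 of 694 (18.4%) between 100 and 200 RPKM. Above 500 RPKM, 29 of 143 (20.3%) met it. The share did not climb without limit: it was 16.0% for unigenes with 200 to 500 reads per library on average, 17.0% with 500 to 1000, 16.1% with 1000 to 2000 and 15.3% with more. Below that range reads were few, and the share was 1.82% for an average of 5 to 20 reads. The part of counting error in these low shares was not tested.

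**Figure D1:**
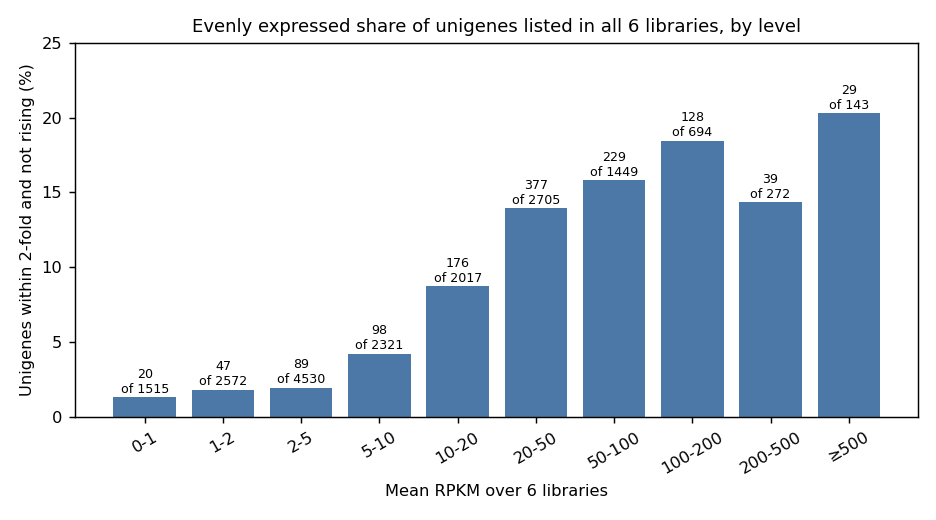
Share of unigenes listed in all 6 libraries that stayed within 2-fold and did not rise at every capsule step (y axis, percent), by class of mean RPKM (x axis). The numbers above the bars are the even unigenes of all in the class, and the share rises from 1.32% under 1 RPKM to 20.3% above 500 RPKM with a dip to 14.3% between 200 and 500 RPKM.

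The members had means from 67.6 to 1663 RPKM, with a median of 119. There were 104 members under 100 RPKM, 128 between 100 and 200, 39 between 200 and 500 and 29 above 500. At or above the lowest member's mean, 1795 unigenes were listed in all libraries and the 300 members were 16.7% of them. The members held between 8.80% (stage 5) and 9.37% (stage 3) of the summed RPKM of each capsule library and 6.42% of that of the gametophyte. Counted within unigenes listed in all 6 libraries, the gametophyte share was 10.4%, inside the capsule range of 10.03% (stage 2) to 11.4% (stage 4). More of the gametophyte's RPKM than of any capsule's lay in unigenes that were not listed in every library.

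The reads behind each value were worked back from the steps between RPKM values, which implied library totals of 5458335 to 5752394 reads for the capsules and 3821669 for the gametophyte. A member had between 593 and 94104 reads over the 6 libraries, with a median of 6333, and at least 49 in its least read library. The median spread of a member over the 6 libraries was a coefficient of variation of 20.5%, against 3.08% from counting error at its reads. All 300 members varied by more than that counting coefficient. The 95% exact counting interval of the ratio of highest to lowest library lay above 1 for 300 members and above 1.2 for 286. These intervals cover counting error only and take no account of having picked the extremes. No such counts of other unigenes are set beside them, so they are not read as a trait of the members.

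The limits cut through a continuous range of values. The last 3 members by level had means of 68.0, 67.8 and 67.6 RPKM, and the first 3 left out had 67.4, 67.2 and 67.1. By range, the widest members stood at ratios of 1.999, 1.998 and 1.991, while the closest unigenes beyond the limit at this level stood at 2.001, 2.001 and 2.002. The 95% counting interval reached above 2 for 113 members, and it reached 2 or below for 111 of the 1494 unigenes of this level that were over the limit. Membership near 2-fold is uncertain to that extent.

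The most abundant member was CL851.Contig1, of 1725 bases. From stage 1 to stage 5 it measured 1188, 2097, 1703, 2002 and 1844 RPKM, and the gametophyte had 1145 RPKM, so stage 1 and the gametophyte were low and the other 4 capsule libraries high. Its capsule mean was 1767 ± 357 RPKM (SD, n = 5 stages, which are not replicates), and its highest value was 1.83 times its lowest, with a 95% counting interval from 1.78 to 1.88. The next, CL6292.Contig2, of 683 bases, went through 1343, 1165, 1681, 1294 and 931 RPKM over the 5 stages against 1026 RPKM in the gametophyte, with its peak in stage 3.

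CL11659.Contig3, of 1039 bases, lay between 1054 (stage 5) and 1465 RPKM (stage 4) in the capsules and at 886 RPKM in the gametophyte, below every capsule value. CL3981.Contig1, of 1201 bases, gave 1272, 980, 1211, 1275 and 783 RPKM in the successive stages, and the gametophyte 702 RPKM. It was therefore low in stages 2 and 5 and lowest in the gametophyte. CL3606.Contig2, of 597 bases, had nearly the same deposited level in the gametophyte (929 RPKM) as on average in the capsules (929 ± 237 RPKM, SD, n = 5 stages). Its single stages ran from 692 (stage 5) to 1246 RPKM (stage 4). As deposited, stage 4 was the peak of 3 of these 5 members, stage 2 of 1 and stage 3 of 1, and stage 5 or the gametophyte held their lowest values. With median-ratio scaling, described further on, stage 4 was the highest library of 4 of them, and the lowest was stage 1 for CL851.Contig1 and stage 5 for the other 4. The capsule mean of CL3606.Contig2 was then 0.720 times its gametophyte value, and its range was 2.12-fold. Its range was beyond 2-fold in the other scalings too.

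Few members were flatter than the rule asks. There were 52 (17.3%) that stayed within 1.5-fold, beside 1.04% of all unigenes listed in all libraries, and 3 stayed within 1.2-fold, beside 0.0494%. Fewer libraries can only raise the first count, which was 81 without stage 4, 94 without stage 5 and 101 without the gametophyte. The rule used these values, so the contrast with the background follows from the choice of members. The median member ranged over 1.73-fold, and this hardly varied with level, from 1.69-fold under 100 RPKM to 1.76-fold between 200 and 500.

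The flattest in RPKM as deposited was Unigene2922, of 1520 bases. The 5 capsule libraries gave 142, 125, 147, 143 and 133 RPKM in order of stage, and the gametophyte, at 142 RPKM, lay inside the capsule range. Its ratio of highest to lowest was 1.17 (95% counting interval 1.08 to 1.27), with 823 to 1283 reads per library. CL1017.Contig2, of 1272 bases, followed with 149, 143, 151, 157 and 162 RPKM in order of stage and 137 RPKM in the gametophyte, a ratio of 1.18. CL7766.Contig2, of 2337 bases, lay between 132 (stage 1) and 152 RPKM (stage 3) in the capsules and at 127 RPKM in the gametophyte, a ratio of 1.197. For these last 2 contigs the gametophyte was the lowest library as deposited, by a small margin. With median-ratio scaling the gametophyte was the highest library of all 3, and the ratio of highest to lowest was 1.58 for Unigene2922, 1.36 for CL1017.Contig2 and 1.39 for CL7766.Contig2. It was the highest of all 3 in the other scalings too.

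**Figure D2:**
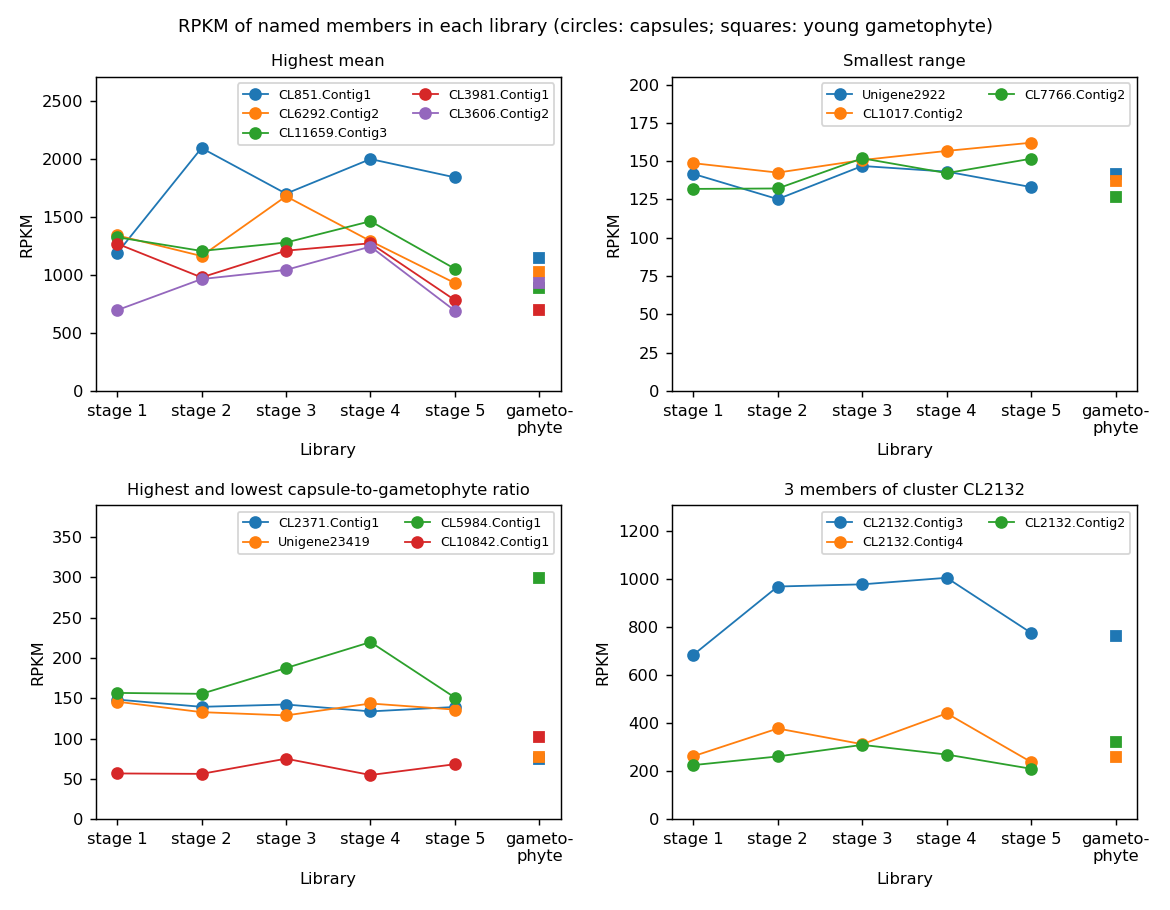
RPKM (y axis, from 0) of named members in the 6 libraries (x axis), with circles joined by lines for capsule stages 1 to 5 and squares for the young gametophyte, 1 library per point. Of the 5 most abundant members, 3 have their peak at stage 4, the 3 flattest stay between 125 and 162 RPKM, and the members with extreme capsule to gametophyte ratios are flat or low in the capsules with the gametophyte set apart. Values are as deposited, and with median-ratio scaling the gametophyte is the highest library of the 3 flattest.

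At the edge of the limit as deposited stood CL1888.Contig2, of 230 bases. It had 422, 434, 538, 601 and 301 RPKM over the successive stages and 361 RPKM in the gametophyte. Its fall was between neighbouring stages 4 and 5, a ratio of 1.999 with a 95% counting interval from 1.77 to 2.26. CL9875.Contig2, of 2524 bases, had 118, 72.5, 117, 59.2 and 77.6 RPKM over the stages and 80.1 RPKM in the gametophyte, so that stages 1 and 3 were high together. Their place at the edge rested on the scaling. With median-ratio scaling the ratio of highest to lowest was 2.35 for CL1888.Contig2 and 1.73 for CL9875.Contig2. The former was beyond 2-fold and the latter inside it in the other scalings too.

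In RPKM as deposited, the gametophyte was most often the lowest library of a member, an order that turned under each of 3 other scalings. It held the lowest value of 98 members and the highest of 26, which are also the numbers with all 5 capsule values above it and below it. The background over all unigenes listed in all libraries was 35.8% above and 15.4% below, and among the 1795 unigenes of the members' level it was 50.8% and 13.7%. The members' shares of 32.7% and 8.67% were bounded by the rule and are not read as a result. Where the capsules lay above, the lowest capsule value exceeded the gametophyte by a median factor of 1.14. As in any bulk sample, fewer cells of a type and less RNA per cell cannot be told apart. The direction of these counts rested on the scaling of the libraries. As deposited, the median unigene listed in all libraries deviated in the gametophyte by −0.40 from its own mean log2 level over the 6 libraries, and the median member had a deviation of −0.19. With median-ratio scaling, which divides the gametophyte values by 0.752 and those of the capsules by 0.945 (stage 4) to 1.13 (stage 3), 5 members had all capsules above the gametophyte and 119 had all below. Trimmed-mean scaling gave 7 and 113, and upper-quartile scaling 7 and 123.

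Single members show what a gap between the generations looked like inside 2-fold in RPKM as deposited. CL2371.Contig1, of 2085 bases, was flat in the capsules at 149, 139, 142, 134 and 139 RPKM but only 75.05 RPKM was measured in the gametophyte. Its capsule mean was 141 ± 5.35 RPKM (SD, n = 5 stages), 1.87 times the gametophyte value. Unigene23419, of 1541 bases, was similar, with 129 (stage 3) to 146 RPKM (stage 1) in the capsules and 77.4 RPKM in the gametophyte. With median-ratio scaling the gaps were smaller. The capsule mean was then 1.33 times the gametophyte value for CL2371.Contig1 and 1.27 times for Unigene23419.

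In the opposite direction, CL5984.Contig1, of 1382 bases, had capsule values of 157, 156, 188, 220 and 151 RPKM in order of stage, and 299 RPKM in the gametophyte. CL10842.Contig1, of 1648 bases, lay between 54.9 (stage 4) and 75.2 RPKM (stage 3) in the capsules and at 102 RPKM in the gametophyte. In both, every capsule value was below the gametophyte. With median-ratio scaling these gaps were wider, and the ratio of highest to lowest was 2.93 for CL5984.Contig1 and 2.59 for CL10842.Contig1. Both were beyond 2-fold in the other scalings too.

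Among the capsules as deposited, stage 4 was most often the highest library, for 74 members (24.7%), beside 17.7% of the 1795 unigenes of the members' level and 12.0% of all listed in all libraries. Stage 5 was most often the lowest capsule library, for 70 members (23.3%), beside 19.4% and 13.3%. Stage 2 was highest for 41 members (13.7%), beside 15.3% and 13.1%, and lowest for 21, beside 4.12% and 12.7%. These shares were bounded by the rule and are given as a description.

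Stage 4 lay above all 3 small stages for 97 members and below them for 60, beside 20.9% and 30.9% of unigenes listed in all libraries and 27.4% and 25.01% of those of the members' level. Stage 5 lay above the small stages for 73 members and below them for 100, beside 29.1% and 23.3% of those listed in all and 27.4% and 33.8% at the members' level. Both directions were thus also those of unigenes of this level, and as deposited they were opposite over all listed unigenes. With median-ratio scaling the latter leaned the same way as the members, with stage 4 above for 27.4% and below for 25.9%, and stage 5 above for 25.9% and below for 28.2%. With upper-quartile scaling this held for stage 5 (25.8% above and 29.2% below) but not for stage 4. There stage 4 was above for 26.0% of all listed unigenes and below for 26.9%, against 159 and 30 members. With median-ratio scaling stage 4 was above for 174 members and below for 27, beside 39.1% and 17.6% at this level. Stage 5 was then above for 56 and below for 114, beside 24.8% and 36.4%. No member fell at every step from stage 1 to stage 5, beside 0.22% of all unigenes listed in all libraries.

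Which library kept other unigenes out of the core was asked by leaving out each library in turn, without the clause on rising unigenes. At a mean of at least the lowest member's, 616 unigenes were within 2-fold over the 5 capsules, and the gametophyte left the range for 304 of them (49.4%). It was too low for 275, too high for 24 and gave no value for 5. Stage 5 left the range of the other 5 libraries for 122 of 425 unigenes (28.7%), in 55 upward and in 67 downward. Stage 4 did so for 80 of 382 (20.9%), mostly upward with 63, stage 1 for 63 of 366 and stage 3 for 54 of 351. Stage 2 did so least, for 20 of 320 (6.25%). With median-ratio scaling the gametophyte remained the library that left the range most often, for 209 of 520 unigenes (40.2%), and it was too low for 127 and too high for 78. Stage 2 remained the one that did so least, for 24 of 333.

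**Figure D3:**
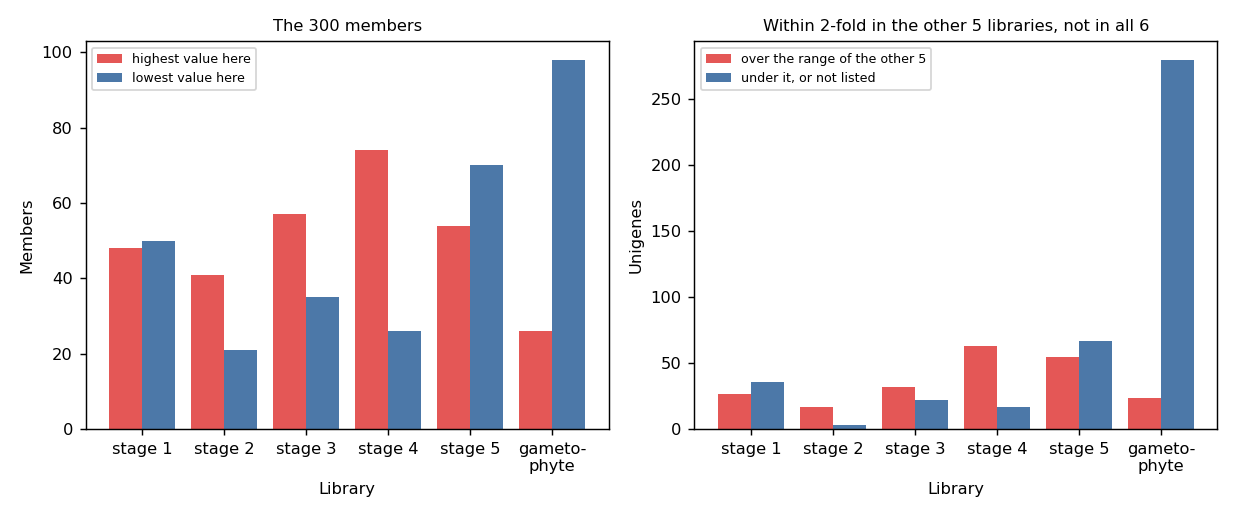
Left: number of the 300 members with their highest (red) and lowest (blue) RPKM in each library. Right: number of unigenes at the members' level that stayed within 2-fold in the other 5 libraries but not in all 6, split by whether the library was above or below the others or gave no value, where the gametophyte stands out with 280 below or without a value. Values are RPKM as deposited, and with median-ratio scaling the gametophyte was highest for 119 members and lowest for 5.

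The members were compared between each of the 15 pairs of libraries. As deposited, the closest pair was stages 2 and 4, with a median absolute log2 ratio of 0.22. For this pair 177 members (59.0%) were within 1.2-fold, beside 27.8% of all unigenes listed in all libraries. Stages 2 and 3 followed at 0.24 and stages 1 and 3 at 0.26. The most distant pair was stage 5 and the gametophyte at 0.41, with 102 members (34.0%) within 1.2-fold, beside 9.94% of all listed unigenes. The most distant capsules were stages 3 and 5 at 0.37. Over all unigenes listed in all libraries the closest and the most distant pair were the same 2, at 0.56 and 1.38. The pairs in between were ordered differently. For the members, stage 2 lay at 0.28 from the gametophyte and at 0.33 from stage 1, whereas over all listed unigenes the gametophyte and stage 2 were the 13th closest pair and stages 1 and 2 the ninth. The members' order changed with the scaling. For the members the distances of stage 2 from the gametophyte and from stage 1 were 0.31 and 0.34 with median-ratio scaling, but 0.34 and 0.33 with upper-quartile scaling. The closest members' pair was stages 2 and 3 with trimmed-mean (0.25) and upper-quartile scaling (0.25), and the most distant was stages 1 and 4 with trimmed-mean scaling (0.43). The most distant capsules were stages 1 and 4 in all 3 scalings. Over all pairs and members, 2005 of 4500 ratios (44.6%) were within 1.2-fold. The 2-fold rule bounds the members' ratios, so these counts and distances are a description and are not read as a result.

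**Figure D4:**
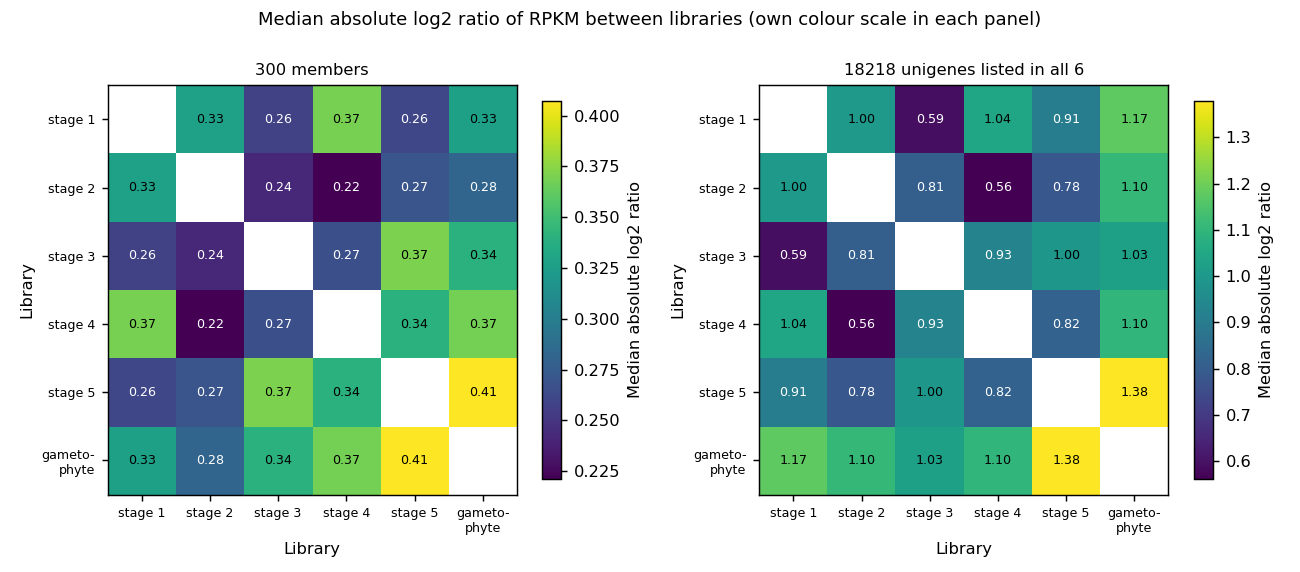
Median absolute log2 ratio of RPKM between each pair of libraries for the 300 members (left) and for all 18218 unigenes listed in all 6 libraries (right), with a colour scale for each panel. Stages 2 and 4 are the closest pair (0.22 and 0.56) and stage 5 and the gametophyte the most distant (0.41 and 1.38) in both panels. Values are as deposited, and with trimmed-mean scaling stages 2 and 3 are the closest pair of the members and stages 1 and 4 the most distant.

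Across the 300 members, the deviations from each member's own mean log2 level were opposed in some pairs of libraries. Spearman's rho was −0.59 for stage 1 with stage 2, −0.57 for stage 3 with stage 5 and −0.41 for stage 1 with stage 4. The highest rho, 0.25, was that of stages 2 and 4. Deviations from a mean sum to 0 and lean toward negative correlation by construction, and members are not independent, so these values describe the set only. They are not given for other unigenes and are not read as a trait of the members.

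The members' lengths were like those of other well expressed unigenes. The median was 1421 bases (range 200 to 9255), against 1555 bases for the 1495 unigenes of the same level that were not members. It was 1163 bases over all unigenes listed in all libraries. Of the members, 156 (52.0%) were contigs of a cluster and 144 were single unigenes, while 42.5% of all unigenes of this level and 39.5% of those listed in all libraries were contigs. Contigs that were members had a higher median level than single unigenes, 137 against 110 RPKM, and a similar range, 1.72-fold against 1.77-fold.

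The 156 contigs came from 150 clusters, and 103 of these clusters listed further contigs. Of these 187 other contigs, 31 were listed in all 6 libraries and failed the rule or its limit on level, and the remaining 156 could not meet it. Their median level was 3.84 RPKM over the 6 libraries, counting a dash as 0, and 133 of them (71.1%) were listed in the gametophyte and in no capsule library. Of all 21844 contigs in the files, 13.9% were listed in the gametophyte only. The 187 leave out the members, which the rule requires in all 6 libraries, so these shares are not on the same footing. Clusters of the same level without a member showed the pattern too. In clusters that held an uneven contig of the members' level, 352 of 597 contigs under that level (59.0%) were gametophyte-only, against 133 of 174 (76.4%) in the members' clusters. The difference between these shares was not tested. What a shared cluster number means, and how reads matching several contigs were counted, is not given in the sources used here.

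Adding gametophyte-only contigs can only lower a cluster's ratio of capsules to gametophyte. In the 86 clusters that held a member and such a contig, these contigs had between 1.19 and 296 RPKM each, with a median of 19.8, and a median of 18.1% of the cluster's gametophyte RPKM. By the members alone, in RPKM as deposited, the capsule mean was above the gametophyte in 77 of the 86 clusters, with a median ratio of 1.205. By the sum of all contigs it was above in 38, with a median ratio of 0.978. With median-ratio scaling the capsule mean was above in 15 by the members, with a median ratio of 0.856, and in 5 by the sum, with 0.697, so the direction by the members turned with the scaling. Trimmed-mean scaling gave 18 and 5, and upper-quartile scaling 15 and 5. As deposited, the sums themselves stayed within 2-fold for 77 of the 86, which the choice of the members largely sets. Sums of RPKM over contigs of different length are not the RPKM of a joined sequence, and whether contigs of a cluster stand for 1 gene was not tested.

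**Figure D5:**
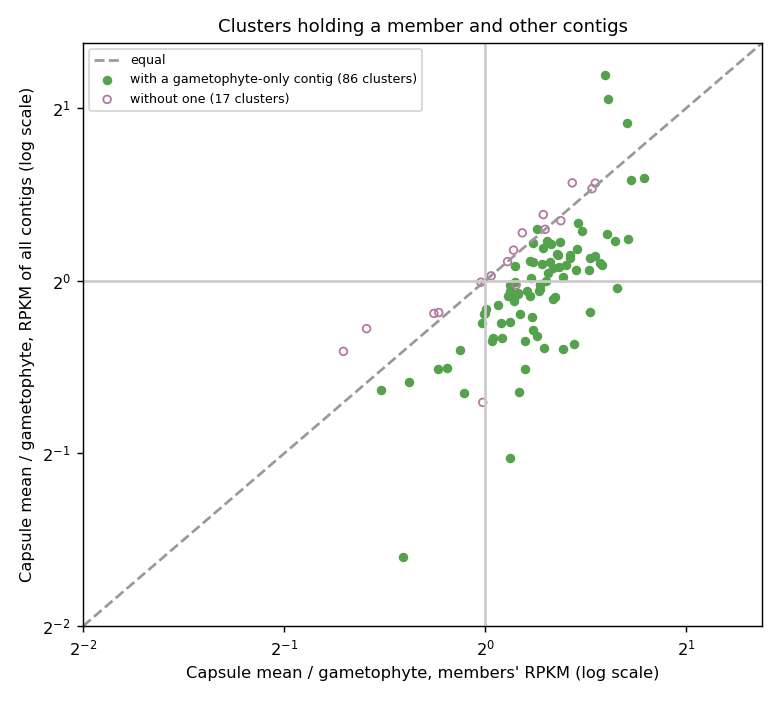
Ratio of mean capsule RPKM to gametophyte RPKM in the 103 clusters that held a member and other contigs, from the members alone (x axis) and from all contigs (y axis), both on log scales. Filled points are the 86 clusters with a contig listed in the gametophyte only, most of which lie below the dashed line of equal ratios, and open points are the other 17 clusters. Values are as deposited, and with median-ratio scaling the capsule mean is above the gametophyte in 15 of the 86 by the members in place of 77.

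Over all 103 clusters with further contigs, members held a median of 96.3% of the summed RPKM, and the sum stayed within 2-fold in 92 (89.3%), a share that the choice of the members largely sets. With median-ratio scaling it did so in 55. As deposited, 333 other clusters with several contigs held an uneven contig of the members' level. Their sum stayed within 2-fold in 26 (7.81%). Among all 800 clusters with a sum at the members' level in every library, 181 sums (22.6%) were within 2-fold. In 10 of the 103 clusters the members held under 50% of the sum, and 3 of these sums stayed within 2-fold. The widest sum was 4.13-fold, in cluster CL4094, singled out for this value, where a gametophyte-only contig brought the gametophyte to 282 RPKM against 68.2 (stage 5) to 117 RPKM (stage 3) in the capsules.

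The 31 other contigs listed in all libraries had a median ratio of highest to lowest of 2.91. Of these, 13 were at the members' level and were left out by the rule, so their wider range follows from the choice, and 18 were under that level. There were 4 of the 31 (12.9%) that met the rule without its limit on level, beside 6.76% of all unigenes listed in all libraries. All were among the 18, because the 13 could not meet it. Of the 31, CL421.Contig1 was singled out after its values were seen. CL421.Contig1, of 741 bases, reached 85.2 RPKM in stage 1 and 139 RPKM in stage 3, with 49.8 RPKM in the gametophyte, but had 0.235, 0.742 and 0.236 RPKM in stages 2, 4 and 5, which correspond to 1, 3 and 1 reads. Its cluster partner CL421.Contig5, of 838 bases and the 11th most abundant member, had 809, 874, 1087, 815 and 567 RPKM by stage and 738 RPKM in the gametophyte. The even contig thus shared its cluster number with one read almost only in stages 1, 3 and the gametophyte.

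One cluster, CL2132, held 3 members. CL2132.Contig3, of 381 bases, gave 684, 968, 977, 1004 and 775 RPKM by stage and 763 RPKM in the gametophyte. CL2132.Contig4, of 1967 bases, gave 262, 377, 312, 441 and 238 RPKM by stage, with 257 RPKM in the gametophyte. CL2132.Contig2, of 744 bases, gave 225, 261, 309, 269 and 210 RPKM by stage and 321 RPKM in the gametophyte, where it was highest. The first and second peaked in stage 4, and the third peaked in stage 3 among the capsules. These values are as deposited. With median-ratio scaling the ratio of highest to lowest was 1.69 for CL2132.Contig3, 2.18 for CL2132.Contig4 and 2.26 for CL2132.Contig2. The ratios of CL2132.Contig4 and CL2132.Contig2 were beyond 2-fold in the other scalings too. A further contig of the cluster, CL2132.Contig5, stood at 145 RPKM in the gametophyte and at 4.31 RPKM in stage 1, 6.97 in stage 3 and 0.350 in stage 4, with no value in stages 2 and 5. The sum of all 5 contigs ran from 1175 (stage 1) to 1714 RPKM (stage 4) with 1528 RPKM in the gametophyte, a ratio of 1.46.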

How the data were processed

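RNA sequencing values of 6 libraries were used, 1 per group. A further sample, a pool, was not used here. The authors' deposited values are, per the file headers, RPKM per unigene, with a dash where no value is listed. Not given in the sources used here are the assembler, the aligner, the counting rule and the use of strand. The members, limits and comparisons were chosen with earlier results of these data known.

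Library totals were estimated from the steps between repeated low values, and the length of each of the 18218 unigenes listed in all 6 libraries was the smallest from 200 to 15000 bases at which every value is a whole number of reads. A length was found for all 18218. The recovery was tested on simulated data; where length and reads share a factor, both are underestimated, and a gametophyte total that is a multiple of the one taken gives whole reads too. Ratios used RPKM with no pseudocount. Intervals are exact conditional-binomial at 95%. Scaling alternatives used factors from the 18218 unigenes: the median ratio to the geometric mean, a mean of log ratios trimmed by 30% on each side (5% by level), and the upper quartile. Named members were the 5 highest by mean, the 3 of smallest range, the 2 highest and 2 lowest by capsule to gametophyte ratio, the 2 nearest the 2-fold limit and those of the cluster with most members. Other alternatives were limits of 1.5-fold and 3-fold, low-value filters, other rankings and leaving out each library. Python 3.11.15, numpy 2.4.6, pandas 2.3.3, scipy 1.17.1 and matplotlib 3.10.9 were used.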

Additional observations from a re-analysis of the deposited data

How the results depend on the processing

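Of 55 alternative values, 33 stayed within 1.5 times the reported count or within the 95% interval of the reported share. The rest follow. The scaling factors raise gametophyte values against capsule values and thereby change which unigenes are even. With median-ratio, trimmed-mean and upper-quartile scaling, 191, 194 and 205 of the 300 members stayed within 2-fold, and 185, 189 and 186 were chosen again by the full rule. Members with all capsules above the gametophyte fell from 98 to 5, 7 and 7, those with all below rose from 26 to 119, 113 and 123, and cluster sums within 2-fold fell from 92 to 55, 59 and 58. The number of even unigenes was 187 at a 1.5-fold limit and 3879 at a 3-fold limit, against 1232. Leaving out 1 library gave 1450 (stage 2) to 2937 (gametophyte) even unigenes, with 1851 without stage 5. It gave 62 (stage 2) to 101 (gametophyte) members within 1.5-fold, with 81 without stage 4 and 94 without stage 5, against 52. Of the 300 members, 281 were chosen again without stage 2 and 160 without the gametophyte. Scaling alternatives for re-chosen members, named members, pairs, stage patterns, shares by level and clusters were added after seeing the data. Depth leaves membership uncertain near the limit, where 113 members and 111 unigenes beyond 2-fold had counting intervals that span the limit.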
